A study of Mus musculus with 8 samples.

Results

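SLC16 monocarboxylate transporter genes were examined in whole-kidney RNA-Seq of c-MafΔTAM and c-Maf fl/fl mice. They were taken by name, as 8 genes of the family (Slc16a1, Slc16a4, Slc16a7, Slc16a9, Slc16a10, Slc16a12, Slc16a13, and Slc16a14) and the gene of their chaperone, Bsg, which gave 9 of the 55367 genes listed. All mice were labelled C57BL/6J and 8 weeks old and were homozygous for floxed c-Maf. The 4 c-MafΔTAM mice also carried a tamoxifen (TAM)-inducible Cre recombinase (CAG-Cre-ER TM), which is driven in all tissues, so deletion was not limited to the kidney. The 4 c-Maf fl/fl mice lacked Cre, and both genotypes received TAM. The labels and methods gave no time after TAM for these samples, and the text of the study refers to TAM(10d) where it discusses the RNA-Seq. The sexes of the mice were not stated.

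The SLC16 family takes its name from proton-coupled transporters that move lactate, pyruvate, and ketone bodies across the plasma membrane. Other members carry other cargo, such as aromatic amino acids and thyroid hormone, creatine, or carnitine, and several have no settled substrate. Some reach the membrane only together with a single-pass glycoprotein such as basigin, the product of Bsg. In the kidney, filtered lactate is taken up at the apical side of the proximal tubule by sodium-coupled carriers of the SLC5 family, and SLC16 carriers serve mainly the basolateral side. c-Maf is a basic leucine zipper transcription factor that binds DNA elements called MAREs, whose half-site is built around the letters TGCTGA.

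Levels are TMM-normalized CPM (counts scaled to a common library size by edgeR's TMM method), which can be compared between mice but not between genes of different length. Log2 fold changes are c-MafΔTAM relative to c-Maf fl/fl mice. A gene was called when edgeR's quasi-likelihood test gave a Benjamini-Hochberg adjusted P under 0.05 over all 20149 genes tested, and every adjusted P below comes from this fit unless another setting is named. Totals ran from 16649129 to 22990257 counts per mouse, and all 9 members passed the filter on low counts. Mitochondrial genes took 17.1% to 32.3% of the counts, with the highest share in c-MafΔTAM mouse 1. Xist, the transcript of the inactive X chromosome, had 2 to 22 counts in c-MafΔTAM mouse 1 and c-Maf fl/fl mice 3 and 4, and at least 17618 in the other 5 mice. Called members therefore have a second value from the 5 high-Xist mice alone (3 c-MafΔTAM and 2 c-Maf fl/fl). Maf itself was at 9.06, 34.5, 29.6, and 10.1 CPM in c-MafΔTAM mice 1 to 4, against 305.4 to 379.9 CPM in c-Maf fl/fl mice (log2 fold change −4.05, SE 0.512, adjusted P = 0.0115). It was not called in the 5 high-Xist mice (−3.87, adjusted P = 0.108) or with the replicate number as a block (−4.28, adjusted P = 0.0516).

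Of the 9 members, 4 were lower (Slc16a14, Slc16a10, Slc16a12, and Slc16a1), 1 was higher (Slc16a7), and 4 were not called (Slc16a4, Slc16a9, Slc16a13, and Bsg). Of all genes tested, 1.58% were called lower and 0.586% higher. The same 4 members were lower in every c-MafΔTAM mouse than in every c-Maf fl/fl mouse, which held for 5.62% of all genes tested, and Slc16a7 was higher in every c-MafΔTAM mouse, which held for 4.17%. The median log2 fold change of the 9 members was −0.06, beside 0.003 over all genes tested.

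The stretches just before the starts of the 4 lower genes are shown because these genes moved in the same direction after loss of a DNA-binding factor. They are RefSeq sequences of GRCm38.p6 upstream of the RefSeq start, without bases inside the annotated gene, written 5′ to 3′ on the strand of the gene. Capitals mark TGCTGA, searched on both strands. Slc16a14 is chr1:84935135-84935333 (minus strand), Slc16a10 is chr10:40142259-40142504 (minus), Slc16a12 is chr19:34747329-34747578 (minus), and Slc16a1 is chr3:104638414-104638663 (plus).
Slc16a14: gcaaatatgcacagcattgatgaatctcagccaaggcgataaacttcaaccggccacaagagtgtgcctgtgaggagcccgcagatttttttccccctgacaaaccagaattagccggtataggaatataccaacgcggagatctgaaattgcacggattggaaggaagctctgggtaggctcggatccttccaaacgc
Slc16a10: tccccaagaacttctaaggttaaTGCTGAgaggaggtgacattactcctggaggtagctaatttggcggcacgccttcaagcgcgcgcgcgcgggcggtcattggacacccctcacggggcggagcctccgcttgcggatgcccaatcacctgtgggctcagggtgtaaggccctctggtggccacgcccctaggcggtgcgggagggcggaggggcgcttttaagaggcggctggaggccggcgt
Slc16a12: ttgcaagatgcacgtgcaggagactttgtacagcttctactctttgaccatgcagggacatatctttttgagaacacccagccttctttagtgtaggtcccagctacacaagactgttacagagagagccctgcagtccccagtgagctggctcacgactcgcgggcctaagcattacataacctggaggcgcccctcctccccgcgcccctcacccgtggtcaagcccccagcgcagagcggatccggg
Slc16a1: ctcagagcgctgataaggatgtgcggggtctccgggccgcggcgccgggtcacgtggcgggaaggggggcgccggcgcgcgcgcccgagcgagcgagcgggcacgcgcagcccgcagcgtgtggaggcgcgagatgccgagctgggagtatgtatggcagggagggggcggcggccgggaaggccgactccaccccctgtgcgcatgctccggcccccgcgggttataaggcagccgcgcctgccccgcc
Promoter windows from 250 bases before to 50 bases after the start were at hand for 6 members (Slc16a1, Slc16a4, Slc16a9, Slc16a10, Slc16a12, and Slc16a14). TGCTGA was found in 1 of them, that of Slc16a10, where it begins 227 bases before the start. It was found in 19.5% of the 32851 mouse promoter windows of this length. TGACTCA, the core of the TRE-type MARE, was found in 0 of the 6 windows on either strand, so no match overlapped another, and in 5.2% of all windows. CRE-type MAREs were not searched. The windows also differed in base composition, from 49.3% G and C in Slc16a4 to 73.7% in Slc16a1, with a median of 52.7% over all windows.

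Slc16a14, which encodes a family member without a settled substrate, fell the furthest of the 9 members. The gene is on chromosome 1 (GRCm38, 84905898 to 84935134, minus strand). Its level was 1.73, 11, 9.54, and 3.14 CPM in c-MafΔTAM animals 1 to 4 and 52.1, 60.4, 133.4, and 119.5 CPM in the controls 1 to 4. The highest c-MafΔTAM value was thus below the lowest c-Maf fl/fl value. These levels rest on 34 to 215 counts per c-MafΔTAM mouse and 1063 to 2628 per c-Maf fl/fl mouse. On average this was 6.36 ± 4.61 against 91.3 ± 41.0 CPM (SD over 4 mice, as for each ± below), a log2 fold change of −3.84 (SE 0.684, 95% interval −5.49 to −2.20, adjusted P = 0.0494).

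The fall of Slc16a14 was large in every fit, but its call was close to the threshold. With any 1 of the 8 mice left out, the log2 fold change was −4.26 to −3.53 and the adjusted P 0.0638 to 0.128, so it was called in 0 of 8 such fits, at 0.0638 without c-MafΔTAM mouse 1. In the 5 high-Xist mice the log2 fold change was −2.83 (adjusted P = 0.146), and with the replicate number as a block it was −4.03 (adjusted P = 0.0907). Within c-Maf fl/fl mice the level moved with Xist, with a mean of 56.3 CPM in the 2 mice with high Xist and 126.4 CPM in the 2 with low Xist. Among c-MafΔTAM mice the one with low Xist had the lowest value (1.73 CPM), and mouse 4, with high Xist, was next at 3.14 CPM. The level of Slc16a14 had the same order over these mice as the remaining Maf (9.06, 34.5, 29.6, and 10.1 CPM in mice 1 to 4). Slc16a10, Slc16a12, and Slc16a1 did not have this order. The part of Xist or of remaining Maf in the level of Slc16a14 was not tested.

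Slc16a10 (TAT1 or MCT10) carries aromatic amino acids out of the proximal tubule cell and also transports thyroid hormone. The gene is on chromosome 10 (40033532 to 40142258, minus strand), and its level was 33.7, 37.4, 35.7, and 31.0 CPM in c-MafΔTAM animals against 62.1, 61.7, 84.7, and 71.3 CPM in the c-Maf fl/fl controls. The groups did not overlap, and the c-MafΔTAM mice lay within a narrow range. The means were 34.5 ± 2.74 and 70 ± 10.8 CPM, a log2 fold change of −1.02 (SE 0.112, 95% interval −1.27 to −0.78, adjusted P = 0.000373). The gene was called in all 8 fits with 1 mouse left out and in the 5 high-Xist mice (log2 fold change −0.84, adjusted P = 8.87e-05).

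Slc16a12 (MCT12) is a creatine transporter of the basolateral side of the proximal tubule. The gene is on chromosome 19 (34668403 to 34747289, minus strand), and its level was 78.0, 77.4, 67.5, and 79.9 CPM in c-MafΔTAM animals against 143.1, 133.9, 182.3, and 146.1 CPM in the c-Maf fl/fl controls. No value of one genotype fell inside the range of the other. The means were 75.7 ± 5.57 and 151.4 ± 21.3 CPM, a log2 fold change of −1.0 (SE 0.106, 95% interval −1.23 to −0.77, adjusted P = 0.000318), the smallest adjusted P of the 9 members. The call held in all 8 fits with 1 mouse left out and in the 5 high-Xist mice (log2 fold change −0.89, adjusted P = 2.52e-05).

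Slc16a1 (MCT1), the widely expressed proton-coupled carrier of lactate, pyruvate, and ketone bodies, was lower by a smaller amount. The gene is on chromosome 3 (104638668 to 104658462, plus strand), and its level was 16.2, 16.0, 14.5, and 13.4 CPM in c-MafΔTAM animals against 19.4, 21.1, 30.3, and 27.6 CPM in the c-Maf fl/fl controls. The 2 lowest c-Maf fl/fl values, both from mice with high Xist, lay closest to the c-MafΔTAM mice. The means were 15.0 ± 1.31 and 24.6 ± 5.19 CPM, a log2 fold change of −0.71 (SE 0.146, 95% interval −1.03 to −0.39, adjusted P = 0.028). Slc16a1 was called in 3 of the 8 fits with 1 mouse left out. It was not called without c-MafΔTAM mouse 2, 3, or 4 (adjusted P = 0.0709, 0.105, and 0.0748) or without c-Maf fl/fl mouse 3 or 4 (0.0856 and 0.0781), nor in the 5 high-Xist mice (log2 fold change −0.47, adjusted P = 0.0649). The adjusted P was 0.00227 with Xist as a covariate, and 0.186 with the replicate number as a block (log2 fold change −0.69), where the gene was not called.

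Slc16a7 (MCT2), a carrier with high affinity for lactate and pyruvate, was the member called higher. It lies on chromosome 10 (125219270 to 125389465, minus strand), with 1.51% of its exon bases shared with Gm47862. Its level was 312.4, 360.2, 322.6, and 310.3 CPM in c-MafΔTAM animals against 234.8, 231.6, 235.8, and 193.9 CPM in the c-Maf fl/fl controls. The groups did not overlap, and c-Maf fl/fl mouse 4 stood below the other controls. The means were 326.4 ± 23.2 and 224.0 ± 20.2 CPM, 1.46-fold higher in c-MafΔTAM mice (log2 fold change 0.54, SE 0.0947, 95% interval 0.34 to 0.75, adjusted P = 0.0107). The call held in all 8 fits with 1 mouse left out (0.48 to 0.57) and in the 5 high-Xist mice (0.50, adjusted P = 0.00326), but not with the replicate number as a block (0.54, adjusted P = 0.0973). For each of these 5 called genes, an exact permutation of the genotypes in all 70 ways gave a two-sided P of 0.0286, the smallest that 4 against 4 mice allow. Any gene without overlap between the groups has this P, so it adds nothing to the separation given above. Of all genes tested, 5.62% were lower and 4.17% higher without overlap.

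**Figure D1:**
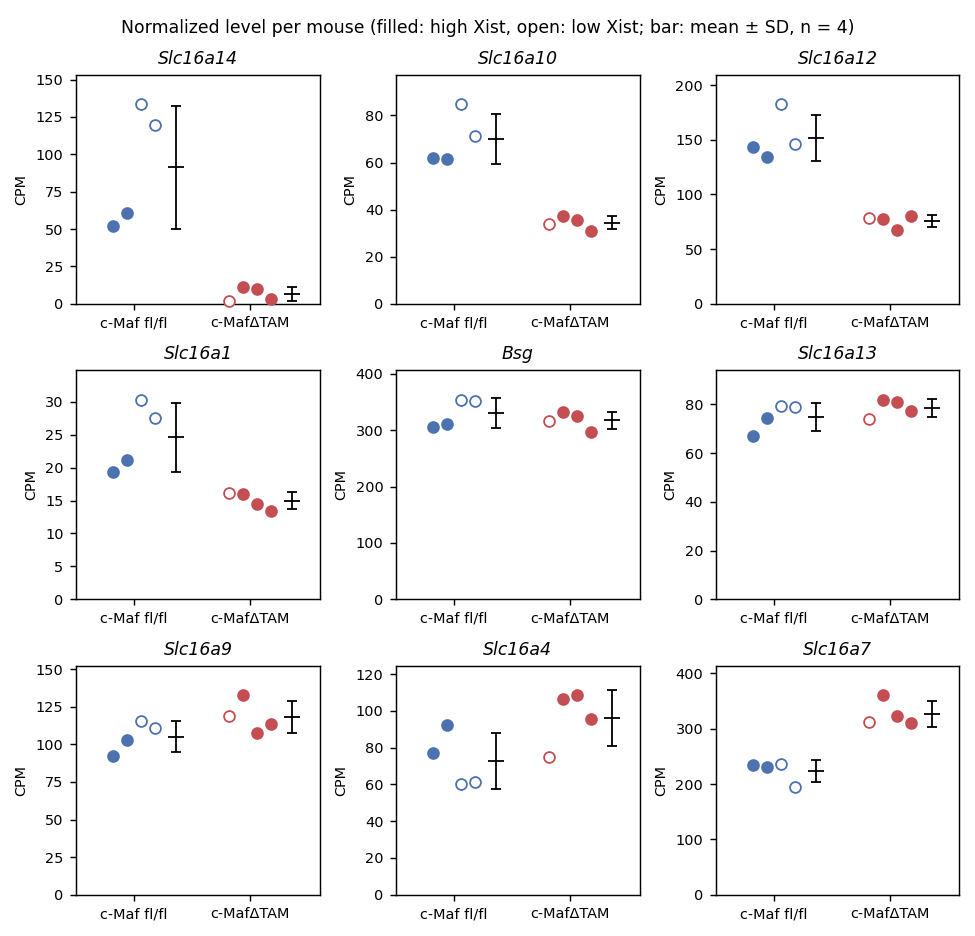
Each panel plots 1 gene, with the TMM-normalized level in CPM on an axis from 0 and 1 point per mouse, in the order of mice 1 to 4 within each genotype (filled, high Xist; open, low Xist). Bars give the mean ± SD of 4 mice; c-MafΔTAM and c-Maf fl/fl points are apart for Slc16a14, Slc16a10, Slc16a12, Slc16a1, and Slc16a7 and overlap for Bsg, Slc16a13, Slc16a9, and Slc16a4.

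Slc16a4 (MCT5), whose substrate is not settled, was 74.8, 106.3, 108.4, and 95.8 CPM in c-MafΔTAM animals against 76.9, 92.5, 60.5, and 61.6 CPM in the c-Maf fl/fl controls. In each genotype the mice with low Xist had the lowest values, and c-MafΔTAM mouse 1 lay inside the range of the controls. The log2 fold change was 0.40 (SE 0.155, 95% interval 0.06 to 0.74, adjusted P = 0.274). With Xist as a covariate it was 0.32 and was called (adjusted P = 0.0186), whereas in the 5 high-Xist mice it was 0.29 and was not (adjusted P = 0.139). Slc16a4 is on chromosome 3 (107291230 to 107312115, plus strand).

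Slc16a9 (MCT9), which has been linked to carnitine efflux, was 107.5 to 132.4 CPM in c-MafΔTAM animals against 91.9 to 115.4 CPM in c-Maf fl/fl mice, and the groups overlapped. The log2 fold change was 0.17 (95% interval −0.04 to 0.38, adjusted P = 0.483). Its exons on chromosome 10 (70245100 to 70285968, plus strand) share 23.5% of their bases with Gm7097 and Gm9877, and reads on shared bases were not counted, so its level is uncertain.

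Slc16a13 was 73.9 to 81.8 CPM in c-MafΔTAM animals against 67.0 to 79.3 CPM in c-Maf fl/fl mice (log2 fold change 0.07, 95% interval −0.11 to 0.25, adjusted P = 0.776). It lies on chromosome 11 (70216789 to 70221064, minus strand), 371 bases from Slc16a11 on the other strand. Slc16a11 had a log2 fold change of 0.22 (adjusted P = 0.497), and neither neighbor was called.

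Bsg, which escorts SLC16 carriers such as Slc16a1 to the membrane, was 316.0, 331.5, 325.8, and 296.6 CPM in c-MafΔTAM animals against 305.1, 311.2, 353.6, and 352.2 CPM in the c-Maf fl/fl controls. The groups overlapped. The log2 fold change was −0.06 (95% interval −0.25 to 0.13, adjusted P = 0.824), and its sign turned under quantile normalization (0.03) and in the 5 high-Xist mice (0.04). Bsg is on chromosome 10 (79704491 to 79711969, plus strand). The other chaperones were not called either, with log2 fold changes of 0.09 for Emb (embigin, the partner of Slc16a7; 95% interval −0.16 to 0.33, adjusted P = 0.798) and 0.002 for Nptn (neuroplastin; −0.19 to 0.19, adjusted P = 0.996). The sign for Nptn turned with Xist as a covariate (−0.02) and in the 5 high-Xist mice (−0.09).

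A further 5 genes of the family (Slc16a3, Slc16a5, Slc16a6, Slc16a8, and Slc16a11) were tested, and 0 of 5 were called in either direction. In the quasi-likelihood test 0 of 5 had an unadjusted P under 0.05, beside 14% of all genes tested, and edgeR's exact test and DESeq2 called 0 as well. Slc16a3 (MCT4), the lactate exporter of glycolytic cells, was at 1.07 to 3.90 CPM and Slc16a8 (MCT3), best known from the retinal pigment epithelium, at a mean of 1.32 and 1.92 CPM in c-Maf fl/fl and c-MafΔTAM mice. Their log2 fold changes were 0.60 (adjusted P = 0.426) and 0.53 (adjusted P = 0.549). Slc16a5 had a log2 fold change of −0.02 (adjusted P = 0.976) and Slc16a6 of −0.08 (adjusted P = 0.935). Both changed sign in the 5 high-Xist mice (0.06 and 0.43), and Slc16a6 shares 23.5% of its exon bases with other genes.

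**Figure D2:**
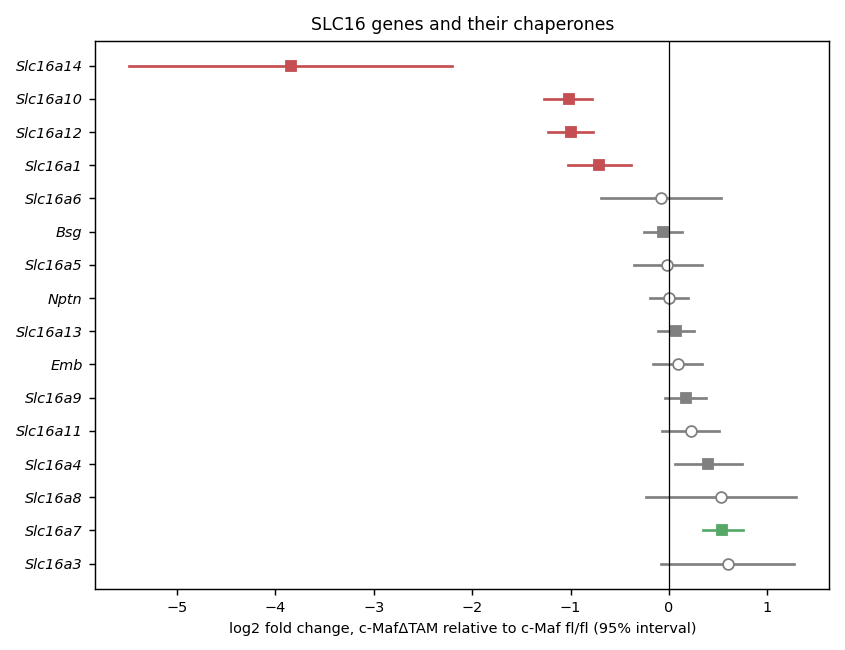
Log2 fold change of c-MafΔTAM relative to c-Maf fl/fl mice with its 95% interval for the 9 members (squares) and for the other SLC16 genes and chaperones (open circles), ordered by value. Red marks genes called lower, green the gene called higher, and grey those not called; the values run from −3.84 for Slc16a14 to 0.60 for Slc16a3, and the interval of Slc16a14 is the widest of the called genes.

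The order of the members by level per length was then compared between the genotypes, on the scale of mean CPM per kilobase of annotated exon. In c-Maf fl/fl mice Bsg was far above the carriers (182.2), followed by Slc16a12 (36.3), Slc16a13 (28.8), Slc16a14 (27.3), Slc16a9 (27.2), Slc16a7 (18.9), Slc16a4 (18.8), Slc16a10 (9.51), and Slc16a1 (5.56). Neighbors in this order whose ranges over mice overlapped were Slc16a13 and Slc16a14, Slc16a14 and Slc16a9, and Slc16a7 and Slc16a4. In c-MafΔTAM mice the order was Bsg (175.0), Slc16a9 (30.5), Slc16a13 (30.2), Slc16a7 (27.6), Slc16a4 (24.8), Slc16a12 (18.1), Slc16a10 (4.68), Slc16a1 (3.4), and Slc16a14 (1.90). Here the ranges overlapped between Slc16a9 and Slc16a13, Slc16a13 and Slc16a7, Slc16a7 and Slc16a4, and Slc16a1 and Slc16a14. Slc16a12, second by mean in c-Maf fl/fl mice, was below Slc16a14 in c-Maf fl/fl mouse 4. The place of Slc16a9 is uncertain, since its length includes the 23.5% of bases on which reads were not counted. Over the countable bases alone, a length chosen after seeing the data, its level was 35.5 (31.1 to 39.0) in c-Maf fl/fl and 39.9 (36.3 to 44.7) in c-MafΔTAM mice. Its range then overlapped that of Slc16a12 (32.1 to 43.7) in c-Maf fl/fl mice and no longer that of Slc16a13 (28.4 to 31.5) in c-MafΔTAM mice. On either length, Slc16a14 had the lowest mean of the members in c-MafΔTAM mice.

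**Figure D3:**
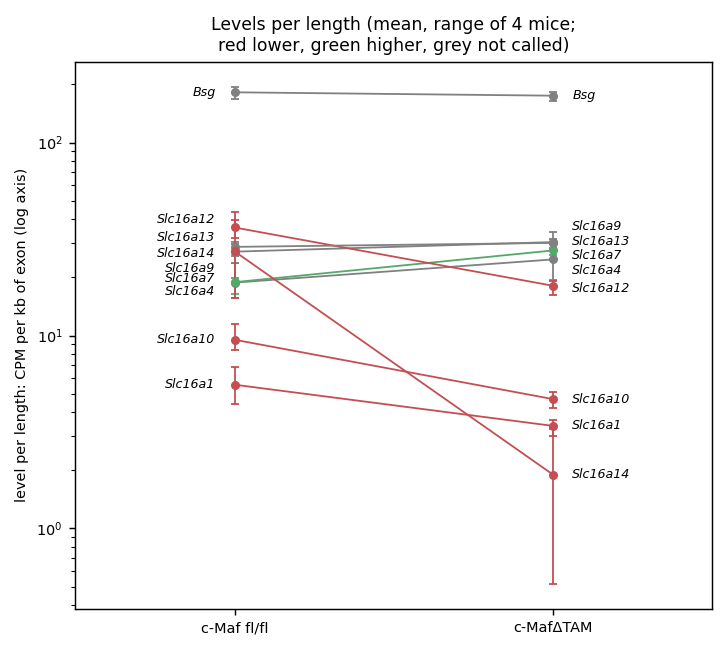
Mean level of each member in CPM per kilobase of exon, on a log axis, in c-Maf fl/fl (left) and c-MafΔTAM mice (right), with the range of 4 mice as bars (red, called lower; green, called higher; grey, not called). Slc16a14 falls from 27.3 to 1.90 and crosses Slc16a10 and Slc16a1, while Bsg stays at the top at 182.2 and 175.0.

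Genes whose products handle the same cargo were taken from fixed lists. Of the 2 genes of sodium-coupled monocarboxylate transport, which bring lactate into the cell from the filtrate, 1 was lower, beside 1.58% of all genes tested. Slc5a12 (SMCT2), the low-affinity lactate carrier of the early proximal tubule, was 105.8 to 142.1 CPM in c-MafΔTAM animals against 301.6 to 513.2 CPM in c-Maf fl/fl mice (log2 fold change −1.71, SE 0.173, adjusted P = 0.000349). Slc5a8 (SMCT1), the high-affinity carrier of the later segments, was 291.8, 131.3, 132.5, and 152.1 CPM in c-MafΔTAM and 95.7, 104.5, 196.4, and 194.0 CPM in the c-Maf fl/fl controls, with the mice of low Xist highest in both genotypes. Its log2 fold change was 0.26 (adjusted P = 0.818), and it was called higher with Xist as a covariate (0.45, adjusted P = 0.00141) and in the 5 high-Xist mice (0.47, adjusted P = 0.00798). Without c-MafΔTAM mouse 1 it was −0.09.

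Of 13 genes of lactate and pyruvate use, 2 were lower and 0 higher, beside 1.58% and 0.586% of all genes tested. The median log2 fold change of the 13 was −0.03. With Xist as a covariate 3 were lower and 1 higher, beside 4.23% lower and 2.59% higher of all genes tested, and in the 5 high-Xist mice 3 were lower and 0 higher, beside 2.22% and 1.53%. With the replicate number as a block 1 was lower (Pdk2), beside 111 of the 20149 genes tested, and Pcx was not called (−0.67, adjusted P = 0.0892). Pdk2, a kinase that restrains pyruvate dehydrogenase, fell from 198.9 ± 17.1 to 115.9 ± 9.04 CPM (log2 fold change −0.78, adjusted P = 0.000746). Pcx, pyruvate carboxylase, the first enzyme of gluconeogenesis from lactate, fell from 725.6 ± 91.0 to 453.6 ± 35.6 CPM (−0.68, adjusted P = 0.00656). Ldhb, the lactate dehydrogenase subunit of oxidative tissues, had a log2 fold change of −0.03 (adjusted P = 0.925), whose sign turned in the 5 high-Xist mice (0.05). Ldhd, which acts on D-lactate, was at −1.0 (adjusted P = 0.45), and 42.2% of its exon bases are shared with Znrf1, so its level is uncertain. It was called lower with Xist as a covariate (−0.65, adjusted P = 0.00252) and in the 5 high-Xist mice (−0.42, adjusted P = 0.00927). Pdk3, another pyruvate dehydrogenase kinase, was the gene called higher with the covariate (0.50, adjusted P = 0.00297), from 0.43 without it (adjusted P = 0.336). Pdk3 is named, as are Bdh2, Tmlhe, and Slco4c1 below, after its values were seen. Of 6 genes of ketone body metabolism, 0 were called by either edgeR test or DESeq2. In the quasi-likelihood test 1 of the 6 had an unadjusted P under 0.05, beside 14% of all genes tested. Oxct1 and Acat1, enzymes that use ketone bodies, had log2 fold changes of −0.02 (adjusted P = 0.963) and −0.25 (adjusted P = 0.876). The sign for Oxct1 turned under quantile normalization (0.11). Acat1 was 565.1 to 685.0 CPM in the 3 mice with low Xist and 225.8 to 268.6 CPM in the other 5, and its log2 fold change was −0.78 without c-MafΔTAM mouse 1, −0.04 without c-Maf fl/fl mouse 4, and −0.11 among high-Xist mice only. In the 5 high-Xist mice 1 of the 6 was called higher, beside 1.53% of all genes tested. It was Bdh2, which was at 0.37 there (adjusted P = 0.0318) and at 0.17 in all mice (adjusted P = 0.668).

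Of 11 genes of creatine and carnitine supply, 10 were tested, and 3 were lower and 0 higher (median log2 fold change −0.18), beside 1.58% and 0.586% of all genes tested. Gatm, which makes the creatine precursor guanidinoacetate, was 14.1, 68.0, 57.1, and 23.0 CPM in c-MafΔTAM mice against 528.8 to 586.8 CPM in c-Maf fl/fl mice (log2 fold change −3.78, SE 0.537, adjusted P = 0.0191). It was called in 3 of the 8 fits with 1 mouse left out, with an adjusted P of 0.0509 without c-MafΔTAM mouse 4 and of 0.0528 to 0.0609 without any c-Maf fl/fl mouse, and not in the 5 high-Xist mice (−3.47, adjusted P = 0.113). Slc22a5 (OCTN2), the carnitine transporter, had a log2 fold change of −1.47 (adjusted P = 4.88e-06), and 33.9% of its 36-base sequences occur in other genes, mostly Slc22a21. Aldh9a1, an enzyme of carnitine synthesis, fell from 283.8 ± 40.4 to 126.4 ± 2.88 CPM (−1.17, adjusted P = 0.000113). Slc6a8, the creatine importer, and Ckb, a creatine kinase, were at −0.29 (adjusted P = 0.155) and 0.34 (adjusted P = 0.512). Slc6a8 was 195.2 to 244.9 CPM in c-MafΔTAM and 253.0 to 282.4 CPM in c-Maf fl/fl mice, without overlap, and was called lower with Xist as a covariate (−0.31, adjusted P = 0.0265). With the covariate 4 genes of the list were lower and 1 higher (Tmlhe, an enzyme of carnitine synthesis, 0.40, adjusted P = 0.0425), beside 4.23% and 2.59% of all genes tested. In the 5 high-Xist mice 2 were lower and 0 higher, beside 2.22% and 1.53%.

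Of 15 genes of aromatic amino acid and thyroid hormone handling, 14 were tested, and 5 were lower and 0 higher (median log2 fold change −0.30), beside 1.58% and 0.586% of all genes tested. The 5 were all transporters: Slc6a19, the apical neutral amino acid carrier (−1.23, adjusted P = 0.0158), Slc7a8, the basolateral exchanger LAT2 (−1.35, adjusted P = 0.0265), Slc3a2, its heavy chain (−1.26, adjusted P = 0.000263), Slc7a7, another partner of that chain (−1.20, adjusted P = 9.35e-05), and Slc43a2, the facilitative carrier LAT4 (−0.70, adjusted P = 0.00563). Slc7a8 was called in 3 of the 8 fits with 1 mouse left out and Slc6a19 in 6 of 8. Slc7a8 was not called without c-MafΔTAM mouse 3 or 4 (adjusted P = 0.0537 and 0.0856) or without c-Maf fl/fl mouse 1, 2, or 4 (0.0814, 0.0719, and 0.0727), and Slc6a19 not without c-MafΔTAM mouse 3 (0.062) or c-Maf fl/fl mouse 1 (0.055). Slc7a8 was also not called under quantile normalization (adjusted P = 0.0532), and neither Slc7a8 nor Slc6a19 with genes of at least 1 count in any mouse (0.114 and 0.0945). With the replicate number as a block 3 of the 14 were lower, beside 111 of the 20149 genes tested. Neither Slc43a2 (−0.69, adjusted P = 0.0892) nor Slc7a8 (−1.40, adjusted P = 0.084) was called in that fit. In the 5 high-Xist mice 5 of the list were lower and 1 higher, beside 2.22% and 1.53% of all genes tested. The higher gene was Slco4c1, an organic anion transporter, which was at 0.94 there (adjusted P = 0.0179) and at −0.23 in all mice (adjusted P = 0.918). Fah, the last enzyme of tyrosine breakdown, and Thrb, a thyroid hormone receptor, were at −0.36 (adjusted P = 0.153) and 0.18 (adjusted P = 0.53).

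**Figure D4:**
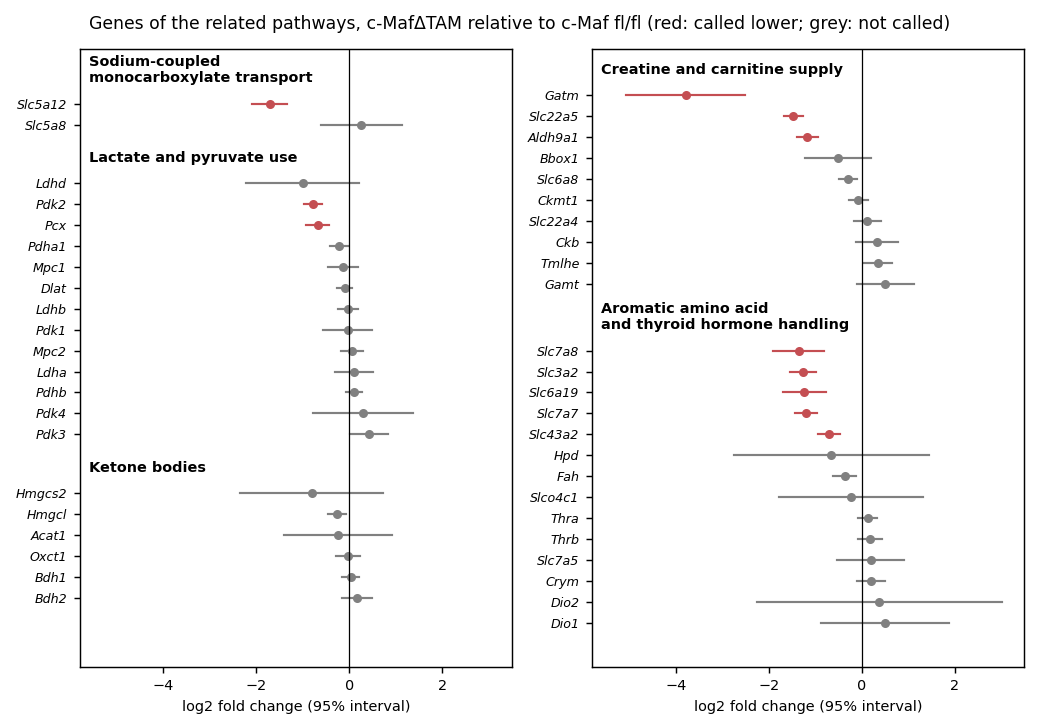
Log2 fold change of c-MafΔTAM relative to c-Maf fl/fl mice with its 95% interval for every tested gene of the 5 lists, 1 row per gene (red, called lower; grey, not called). Calls are all to the lower side, with 1 of 2, 2 of 13, 0 of 6, 3 of 10, and 5 of 14 genes, beside 1.58% of all genes tested. Gatm at −3.78 lies farthest from 0.

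The genes with the profile nearest to that of Slc16a12 over the 8 mice were sought among all genes tested, by the root mean square difference of log2 CPM after centring each gene on its c-Maf fl/fl mean. They were Gm6652 (0.123), Slc16a10 (0.126), Fahd2a (0.137), Scpep1 (0.137), and Slc4a4 (0.144). Slc16a10 was thus the second nearest of all genes. Gm6652 is uncertain, since 77.5% of its 36-base sequences occur in Sord.

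Whole kidney holds many cell types, and in such samples fewer cells of a type and less RNA per cell cannot be told apart. For 8 markers of proximal segments S1 and S2, where several SLC16 carriers are found, the summed level was 9848 to 13465 CPM in c-MafΔTAM and 15627 to 17811 CPM in c-Maf fl/fl mice. Most of this sum is Lrp2 and Slc34a1. Slc34a1 was 1481 to 1972 and 3501 to 4532 CPM. Lrp2 was 4466 CPM in c-MafΔTAM mouse 1 and 7183 to 7710 CPM in the other c-MafΔTAM mice. Of the 8 markers 3 were lower (Slc34a1, Slc5a12, and Slc4a4), beside 1.58% of all genes tested. The other 5 were Slc13a3, a dicarboxylate carrier (log2 fold change −0.87, adjusted P = 0.0763), Slc22a6, an organic anion transporter (−0.49, adjusted P = 0.605), Hnf4a, a transcription factor (−0.20, adjusted P = 0.386), and the endocytic receptor genes Lrp2 (−0.17, adjusted P = 0.719) and Cubn (−0.03, adjusted P = 0.912), both of which turned sign under quantile normalization (0.06 and 0.17). Slc13a3 was lower in every c-MafΔTAM mouse (193.3 to 385.6 CPM) than in every c-Maf fl/fl mouse (510.1 to 692.3 CPM). It was called lower, which made 4 of 8, by edgeR's exact test and DESeq2, with Xist as a covariate (−1.03, adjusted P = 3.36e-06), and in the 5 high-Xist mice (−0.85, adjusted P = 1.25e-05). The exact test called 426 and DESeq2 567 of the 20149 genes lower, and the 2 Xist settings 4.23% and 2.22% of all genes tested. Of the 5 S3 markers 0 were called, with sums of 1025 to 3903 and 795.6 to 2641 CPM. Among them Slc7a13 and Cyp7b1 split with Xist and not with genotype, as Slc7a13 was 204.2 to 324.3 CPM in the 3 mice with low Xist against 0.411 to 1.08 CPM in the other 5, and Cyp7b1 97.8 to 170.3 against 1.66 to 2.55 CPM. The part of these marker levels in the results for the SLC16 genes was not tested. Together with S3, the lists for thick limb, distal convoluted tubule, principal cell, intercalated cell, podocyte, macrophage, fibroblast, red blood cell, hepatocyte, and tubular injury held 44 tested markers, of which 0 were called. In the quasi-likelihood test 7 of the 44 had an unadjusted P under 0.05, beside 14% of all genes tested. Calls by edgeR's exact test and by DESeq2 were 2 each, beside 682 and 886 of the 20149 genes tested. With Xist as a covariate 1 of these 44 was lower (Alb, −2.25, adjusted P = 4.65e-05) and 1 higher (Atp11a, of the S3 list, 0.47, adjusted P = 0.0367). In that setting 4.23% of all genes tested were lower and 2.59% higher. In the 5 high-Xist mice, where 46 were tested, 1 was lower (Alb, −2.35, adjusted P = 0.000529) and 2 were higher (Atp11a, 0.40, adjusted P = 0.0491, and Serpina1a, 2.71, adjusted P = 4.21e-06, 63.2% of whose 36-base sequences occur in other genes), beside 2.22% lower and 1.53% higher of all genes tested. These 3 genes are also named after their values were seen. In the endothelial list 1 of 5 was lower, beside 1.58% of all genes tested (Kdr, −0.37, adjusted P = 0.045, called in 0 of the 8 fits with 1 mouse left out). The summed level of the 5 macrophage markers was 96.4 to 101.2 CPM in c-MafΔTAM and 83.9 to 91.2 CPM in c-Maf fl/fl mice. Most of it is Csf1r (57.7 to 65.1 and 52.7 to 58 CPM). The hepatocyte markers Alb, Apoa1, Fgb, and Serpina1a summed to 3.61 to 21.1 CPM in c-MafΔTAM and 5.07 to 14.3 CPM in c-Maf fl/fl mice. Per kilobase of exon, the means in these genotypes were 0.584 and 2.41 CPM for Alb and 5.4 and 1.37 CPM for Serpina1a. For Lrp2 they were 404.7 and 453.8 CPM. The tissue label is whole kidney, although the extraction protocol speaks of liver.

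**Figure D5:**
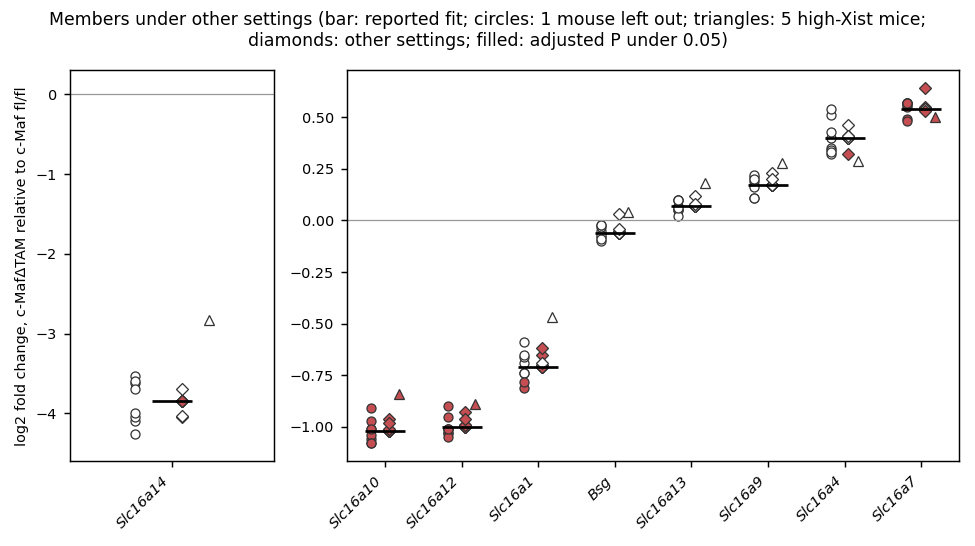
Log2 fold change of each member under the reported fit (bar), with 1 mouse left out (circles), in the 5 high-Xist mice (triangles), and under the other settings (diamonds); filled symbols have an adjusted P under 0.05, and Slc16a14 has an axis of its own. Slc16a10 and Slc16a12 are filled throughout, Slc16a14 runs from −4.26 to −2.83 with open symbols for every mouse left out, and Bsg lies on both sides of 0.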

How the data were processed

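Total RNA of whole kidneys from 4 c-MafΔTAM and 4 c-Maf fl/fl mice had been depleted of ribosomal RNA and sequenced as paired-end reads. The authors deposited unnormalized read counts per gene name, made with featureCounts 2.0.1 (file header; the labels name Subread 2.0.2) on the exons of Ensembl release 102 of GRCm38. Each read of a pair counted once, without regard to strand, and reads on exons of more than 1 gene were left out. The aligner is not given in the sources used here. The study's own route (CLC Genomics Workbench, a quantile method, and an edgeR test) starts from reads and was not repeated.

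Genes were kept by filterByExpr, scaled by TMM (factors 0.857 to 1.11), and tested with robust quasi-likelihood fits without covariates (edgeR 4.0.16, limma 3.58.1, R 4.3.3), with Benjamini-Hochberg adjustment at 0.05. The biological coefficient of variation was 0.203. SE was taken as |log2 fold change| over the root of F. P values set the genotype difference against the spread between the 4 mice of a genotype, which the fit moderates over all genes. That spread includes the uneven Xist split (1 low-Xist c-MafΔTAM mouse and 2 low-Xist c-Maf fl/fl mice). Exact permutation tests used all 70 assignments (scipy 1.17.1). Intervals and P values do not cover ambiguity of read assignment. Figures were drawn with matplotlib 3.10.9.

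The alternatives were RLE factors, quantile normalization with limma-trend, both other filters (at least 1 count in any mouse, at least 10 counts in every mouse), the exact test of edgeR, DESeq2 1.42.0, the replicate number as a block, log2 Xist as a covariate, the 5 high-Xist mice (at least 1000 counts), and each mouse left out in turn. All replicate pairs differed beyond sampling noise, and the table held 0 columns of other samples. The members and gene lists were chosen with earlier results of these data known. Named were Maf, all members, the called genes of each list with up to 2 of the most abundant others, the 5 profiles nearest to the member with the smallest P, and marker genes where a count turned on them. Some listed genes are not reported here and were left out of the lists and their counts. Promoters came from RefSeq (GRCm38.p6), and 36-base sequences from GENCODE transcripts. The scripts were tested on simulated counts.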

Additional observations from a re-analysis of the deposited data

Results flagged for a closer look

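In 34 groups of 4 mice (Maf, the SLC16 genes, and the chaperones in each genotype), 4 groups held a mouse whose gap to the nearest of the others, divided by the range of the group, passed the 95% limit of Dixon's ratio. Chance alone gives about 1.7 in 34. For Slc16a7 in c-Maf fl/fl mice the ratio was 0.9, since mouse 4 was at 193.9 CPM and the others at 231.6 to 235.8 CPM. Without that mouse Slc16a7 was still called higher. For Slc16a3 in c-MafΔTAM mice it was 0.886, with mouse 4 at 3.90 CPM against 2.11 to 2.31 CPM. For Slc16a5 in c-MafΔTAM mice it was 0.928, with mouse 1 at 19.6 CPM against 31.7 to 32.6 CPM. For Slc16a8 in c-MafΔTAM mice it was 0.858, with mouse 1 at 0.814 CPM against 2.21 to 2.44 CPM. c-MafΔTAM mouse 1 is the mouse with low Xist in its genotype and with the highest mitochondrial share of counts (32.3%), and the part of either in its low values was not tested.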

How the results depend on the processing

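The 9 members gave 153 values under the alternatives, of which 130 kept direction and side of the threshold, 20 kept the direction but were no longer called, 1 was newly called (Slc16a4 with Xist as a covariate), and 2 changed sign (both Bsg). Slc16a10 and Slc16a12 were called under all settings run. Over all genes, 436 were called, against 682 with the exact test of edgeR, 886 with DESeq2, 1374 with Xist as a covariate, 789 in the 5 high-Xist mice, and 239 to 452 with 1 mouse left out (256 without c-MafΔTAM mouse 2, 239 without c-MafΔTAM mouse 3, 285 without c-Maf fl/fl mouse 3). The cause was not tested. Of the called genes 72.9% were lower, against 62.5% with the exact test, 62.1% with the Xist covariate, and 59.2% in the 5 high-Xist mice. The count of members called lower was 4, against 2 in the 5 high-Xist mice and 2 to 3 with 1 mouse left out (2 without c-MafΔTAM mouse 2, 3, or 4 or c-Maf fl/fl mouse 3 or 4), and the count called higher was 2 with the Xist covariate. Slc16a14 had an adjusted P of 0.0751 with genes of at least 1 count in any mouse and 0.0545 with the Xist covariate. Maf, at −3.87, was not called in the 5 high-Xist mice (adjusted P = 0.108).

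The replicate numbers are shared by the genotypes. Deviations of same-numbered mice from their genotype means correlated at −0.373, 0.152, −0.11, and −0.331. Mice 1, 3, and 4 differ in Xist from their same-numbered mice, and only mice 2 match. These values therefore cannot decide whether the numbers mark pairs or shared handling. The reported fit has no block, and the block is given as an alternative. With the replicate block 129 genes were called (86.0% lower), with 2 members lower (Slc16a10 and Slc16a12, adjusted P = 0.0166 and 0.0239) and 0 higher. Not called with it were Slc16a14 (−4.03, adjusted P = 0.0907), Slc16a1 (−0.69, 0.186), Slc16a7 (0.54, 0.0973), Maf (−4.28, 0.0516), Pcx (−0.67, 0.0892), Slc7a8 (−1.40, 0.084), Slc43a2 (−0.69, 0.0892), and Kdr (−0.37, 0.193), and Slco4c1 was at 0.03.

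Signs changed in genes that were not called with all mice and no covariate. Under quantile normalization, Bsg was at 0.03, Slc16a5 at 0.002, Ldhb at 0.05, Oxct1 at 0.11, Slco4c1 at 0.09, Lrp2 at 0.06, and Cubn at 0.17. With the Xist covariate, Slc16a6 was at 0.10, Nptn at −0.02, Oxct1 at 0.03, and Slco4c1 at 0.33. In the 5 high-Xist mice, Bsg was at 0.04, Slc16a5 at 0.06, Slc16a6 at 0.43, Nptn at −0.09, Ldhb at 0.05, Oxct1 at 0.06, and Slco4c1 at 0.94 (there called). With 1 mouse left out, Slc16a5 ran from −0.08 to 0.13, Slc16a6 from −0.25 to 0.17, Nptn from −0.04 to 0.06, Slc5a8 from −0.09 to 0.43, Ldhb from −0.09 to 0.02, Oxct1 from −0.09 to 0.05, Slco4c1 from −0.54 to 0.18, Atp11a from −0.52 (without c-MafΔTAM mouse 1) to 0.61, and Cubn from −0.07 to 0.01. The median over all genes moved by no more than 0.03 under any setting.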

Other observations

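Of the 9 members, 4 lie on chromosome 10 (Slc16a7, Slc16a9, Slc16a10, and Bsg). They hold the member called higher, 1 of the 4 called lower, and 2 of the 4 not called.

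Together with the 5 further genes of the family, 13 SLC16 genes were examined, and their median log2 fold change was 0.07. The summed level of these 13 genes was 768.5 to 900.4 CPM in c-MafΔTAM and 816.5 to 986.1 CPM in c-Maf fl/fl mice, and the ranges overlapped.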
